A study of Mus musculus with 20 samples.

Results

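The 35 genes described here encode the enzymes of the TCA cycle, the pyruvate dehydrogenase complex with its kinases and phosphatases, the mitochondrial pyruvate carrier, and the aspartate and glutamate enzymes that exchange carbon with the cycle. They were taken by symbol, with no measured value in the rule, from a table of counts for 46095 gene symbols. All 35 were found, and all 35 were among the 14440 genes kept by the low-count filter. Raw counts of these genes ran from 5 to 42995 per library, and 31 of the 35 had more than 100 counts in every library.

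RNA sequencing of whole liver compared 20 mice, 5 in each of 4 groups: wild-type mice (WT) on a chow diet, WT mice on a diet that produces non-alcoholic steatohepatitis (NASH diet), and mice with a liver-specific deletion of Pck1 (KO, genotype Pck1-cKO) on either diet. Every mouse had its diet for 24 weeks and was 31 to 33 weeks old. Pck1 encodes the cytosolic phosphoenolpyruvate carboxykinase, which turns oxaloacetate into phosphoenolpyruvate at the entry to gluconeogenesis. The sources used here do not give the driver of the deletion, the composition of the NASH diet or the sex of the mice. Pck1 was lower by 2.51 on the log2 scale in KO than in WT livers on chow (log2 fold change -2.51, edgeR adjusted p = 0.00011) and by 2.36 on the NASH diet (log2 fold change -2.36, edgeR adjusted p = 6.13e-05), and the KO livers kept 300.4 to 861 CPM of it (counts scaled to library size).

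The TCA cycle oxidises acetyl-CoA in mitochondria, and in liver it also supplies oxaloacetate and malate for gluconeogenesis and takes up amino acid carbon through glutamate and aspartate. Pyruvate enters mitochondria through the Mpc1 and Mpc2 carrier and is turned into acetyl-CoA by the pyruvate dehydrogenase complex. The Pdk kinases switch that complex off by phosphorylation and the Pdp phosphatases switch it on again. Pdk4 is the kinase that is best known to rise in fasting and high fatty acid supply, as a target of PPARA and FOXO factors.

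Sequences of the windows before the start sites are given for some of the genes. Ogdh, printed among them, was not called in any comparison with all 20 libraries. RefSeq promoter windows (GRCm38.p6), limited here to the 250 bases before each start, held 41 windows for 32 of the 35 genes; Idh3a was not among them. The palindromic cyclic AMP response element TGACGTCA is the site bound by CREB in the fasting response. It was in 4 of the 41 windows, 3 of which hold the same Ogdh site, against 1.55% of all 32851 windows. The genes with it were Ogdh and Mdh2. Both are printed 5′ to 3′ with the element in capitals; the Ogdh stretch is chr11:6291535-6291564 (+ strand) and the Mdh2 stretch is chr5:135778511-135778540 (+ strand, inside the longest GENCODE M21 model of the gene).
Ogdh: acccaattctgTGACGTCAcgtcacgccca
Mdh2: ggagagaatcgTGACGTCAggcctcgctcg
The windows of Pdk4 (chr6:5496310-5496528, - strand, ended before the GENCODE model begins), Dlst (chr12:85110583-85110832, + strand) and Glud1 (chr14:34310477-34310726, + strand) follow, because these 3 genes carried the steadiest or largest differences. Capitals in Glud1 mark an ETS site, CTTCCGG, the reverse strand of CCGGAAG.
Pdk4: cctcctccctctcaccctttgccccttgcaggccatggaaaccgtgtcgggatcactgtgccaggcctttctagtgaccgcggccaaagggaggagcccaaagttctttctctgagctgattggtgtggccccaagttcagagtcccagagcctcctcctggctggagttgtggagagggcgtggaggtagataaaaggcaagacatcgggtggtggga
Dlst: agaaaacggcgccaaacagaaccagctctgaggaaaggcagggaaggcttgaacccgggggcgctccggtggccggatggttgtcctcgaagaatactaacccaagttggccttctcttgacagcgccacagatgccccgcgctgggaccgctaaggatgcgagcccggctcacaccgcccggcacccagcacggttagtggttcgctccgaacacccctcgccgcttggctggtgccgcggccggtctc
Glud1: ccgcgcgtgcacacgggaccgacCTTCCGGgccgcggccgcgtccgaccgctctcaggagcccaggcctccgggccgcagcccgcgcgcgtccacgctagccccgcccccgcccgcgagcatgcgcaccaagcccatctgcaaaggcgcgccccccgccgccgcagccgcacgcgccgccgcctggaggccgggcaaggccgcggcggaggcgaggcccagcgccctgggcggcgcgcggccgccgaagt
On both strands, CCGGAAG was present in Idh3g, Sdhd, Mpc1 and Glud1 and in 6.91% of all windows. The nuclear receptor half-site AGGTCA was present in Sucla2, Sdhb, Fh1, Mpc1, Got1 and Got2 and in 14% of all windows; it lies inside the longer ERR element TCAAGGTCA. The ERR element, the FOXO site GTAAACA and the palindromic NRF1 site had no match in these windows of the 32 genes, and were in 0.387%, 3.17% and 0.782% of all windows.

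The 20 libraries held 9958935 to 20601955 counts. In 6 of them long genes read lower and short genes higher than in the rest: the slope of log2 CPM on log2 exonic length ran from -0.34 to -0.25 in WT chow 3, 4 and 5, WT NASH 4 and KO chow 4 and 5, and from 0.01 to 0.19 in the other 14 libraries. These are called low-slope libraries, none of which was in the KO NASH group. Y-linked counts read 5 of 5 WT chow, 1 of 5 WT NASH, 3 of 5 KO chow and 4 of 5 KO NASH mice as male. Diet and sex can therefore hardly be told apart in WT mice. On the NASH diet, genotype and sex largely go together as well. The 1 male WT NASH mouse was the low-slope library WT NASH 4, so no male WT NASH mouse remains when the low-slope libraries are left out. Hepatocyte markers summed to 46629 to 119006 CPM, and 6 skeletal muscle markers to at most 0.883 CPM in any library. In whole liver, fewer cells of a type and less RNA per cell cannot be told apart.

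Within a group, 9 of the 35 genes were higher in every low-slope library than in every other library of all 3 affected groups (Idh1, Dld, Sucla2, Suclg1, Sdhd, Fh1, Mdh1, Pdhb and Pdhx), and 5 were lower (Aco1, Ogdh, Pdk2, Got2 and Glud1). Among all tested genes 16.9% were higher and 16.9% lower in this way. Ogdh, which encodes the substrate-binding subunit of the oxoglutarate dehydrogenase complex, showed it plainly: WT chow livers 1 to 5 read 257, 251, 65.6, 61.5 and 61.7 CPM, and KO chow livers 1 to 5 read 649, 621, 323, 198 and 108 CPM. The 3 low WT values and the 2 low KO values were the low-slope libraries. Each result below is therefore given for all 20 libraries and, where the call differs, for the 14 others, with a fit that leaves the 6 out.

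**Figure D1:**
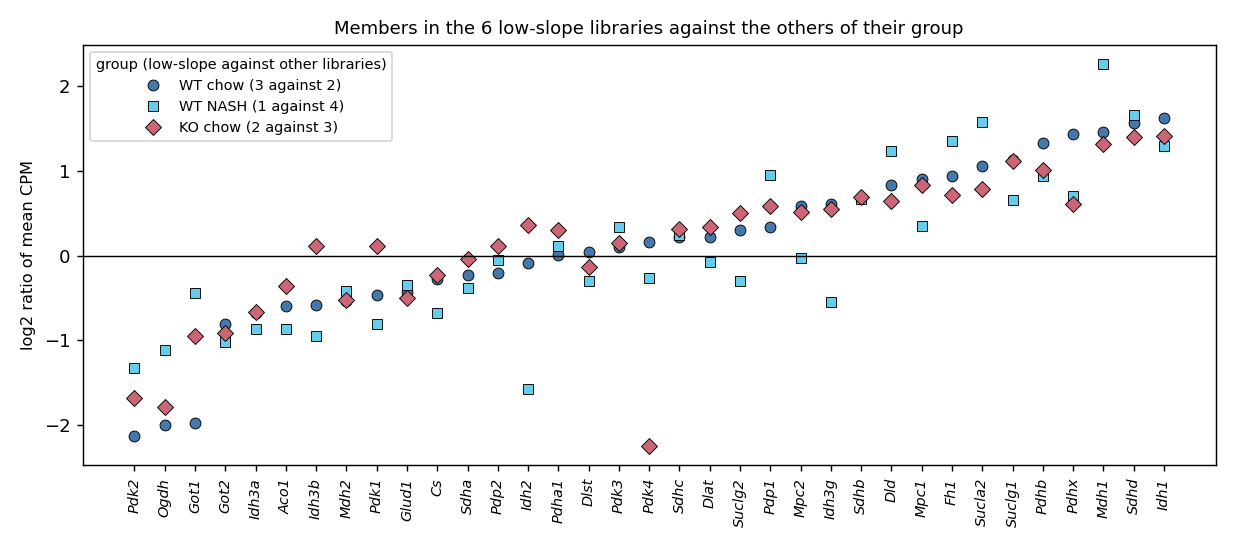
Each of the 35 genes (x axis) with the log2 ratio of its mean CPM in the low-slope libraries to its mean CPM in the other libraries of the same group (y axis), for WT chow (circles), WT NASH (squares) and KO chow (diamonds). Genes at the left, such as Ogdh and Pdk2, read lower in the low-slope libraries of all 3 groups, and genes at the right, such as Idh1 and Sdhd, read higher.

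Per kilobase of exon, the highest levels in WT chow livers were those of Mdh1, the cytosolic malate dehydrogenase (411 ± 196 CPM per kb, SD, n = 5), Sdhd, a membrane anchor of succinate dehydrogenase (339 ± 172) and Idh1, the cytosolic NADP-dependent isocitrate dehydrogenase (223 ± 114). The lowest were those of the kinase Pdk3 (0.296 ± 0.0785 CPM per kb), the phosphatase Pdp1 (0.482 ± 0.136) and Pdhx, the component that anchors dihydrolipoamide dehydrogenase in the pyruvate dehydrogenase complex (1.91 ± 1.05). In the 2 WT chow libraries that are not low-slope the order at the top was another one, with Got1, the cytosolic aspartate aminotransferase, at 240.01 CPM per kb, Mdh1 at 201, Glud1 at 168, Sdhd at 156 and Idh1 at 99.1, so the places of Sdhd and Idh1 rested on the low-slope libraries. Pdk3 and Pdp1 lay well below all other members, Pdhx overlapped with Pdk4 (3.73 ± 1.42 CPM per kb), and the order of the highest 3 did not exceed their spread.

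On chow, loss of Pck1 went with higher RNA of an inhibitor of pyruvate dehydrogenase and of several enzymes of the cycle. Pdk4, Idh3a, Idh2, Mdh2 and Dlst rose and Glud1 fell (edgeR quasi-likelihood test, adjusted p below 0.05), which is 6 of 35 genes against 5.53% of all 14440 tested genes (3.03% higher and 2.49% lower). The median log2 fold change of the 35 was 0.32, and 30 of the 35 were above 0; over all tested genes the median was 0.00 and 50.1% were above 0. In 5 of the 35, all 5 KO values lay above all 5 WT values (Idh2, Idh3a, Dlst, Mdh2 and Pdk4), against 2.26% of all tested genes.

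Pdk4 was 12.1, 12.2, 15.5, 19.6 and 6.03 CPM in WT chow livers 1 to 5, and 327, 426, 22.1, 40.1 and 67.9 CPM in KO chow livers 1 to 5. The groups did not overlap, but the KO livers spread widely, with KO chow 1 and 2 far above the other 3. Pdk4 thus had a log2 fold change of 3.76 ± 0.70 (SE), or 13.5-fold (edgeR adjusted p = 0.004). It was 4.42 ± 1.05 without the 6 low-slope libraries (edgeR adjusted p = 0.0291) and 4.35 in male livers alone (edgeR adjusted p = 0.00316).

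Idh3a, the catalytic subunit of the NAD-dependent isocitrate dehydrogenase, was 31.6, 36.0, 21.2, 13.6 and 28.2 CPM in WT chow livers and 172, 153, 59.9, 121 and 40.9 CPM in KO chow livers. The lowest KO liver, KO chow 5, was above the highest WT liver. The 3 KO chow livers read as male held 121 to 172 CPM, and the 2 read as female, KO chow 3 and 5, lay below them. WT and KO chow livers differed by 2.06 ± 0.35 on the log2 scale (edgeR adjusted p = 0.00202). The other 2 subunits of that enzyme, Idh3b and Idh3g, gave log2 fold changes of 0.48 and 0.62 that did not pass the test with all libraries; without the low-slope libraries Idh3g passed at 0.77 (edgeR adjusted p = 0.00898).

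Dlst, the succinyltransferase core of the oxoglutarate dehydrogenase complex, was the steadiest of these genes. It was 228, 191, 205, 206 and 237 CPM in WT chow livers and 522, 498, 297, 387 and 412 CPM in KO chow livers, with no overlap. Its log2 fold change was 0.99 ± 0.17 (edgeR adjusted p = 0.00226). Ogdh, the partner of Dlst in that complex, had a log2 fold change of 1.45 ± 0.48 that missed the threshold with all 20 libraries (edgeR adjusted p = 0.0837) and passed without the low-slope libraries, at 1.08 ± 0.26 (edgeR adjusted p = 0.0311). Dld, the dihydrolipoamide dehydrogenase shared by both complexes, was at 0.27 and was not called in either fit.

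Mdh2, the mitochondrial malate dehydrogenase that regenerates oxaloacetate, was 137, 144, 99.5, 87.2 and 103 CPM in WT chow livers and 266, 302, 208, 213 and 146 CPM in KO chow livers. The lowest KO value, 146 CPM in KO chow 5, only just cleared the highest WT value. The log2 fold change was 0.99 ± 0.20 (edgeR adjusted p = 0.00723), and it was 0.89 ± 0.17 without the low-slope libraries (edgeR adjusted p = 0.0114).

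Idh2, the mitochondrial NADP-dependent isocitrate dehydrogenase, was 96.4, 82.9, 66.8, 43.6 and 143 CPM in WT chow livers and 160, 203, 143, 246 and 187 CPM in KO chow livers. KO chow 3, at 143.1 CPM, stood just above WT chow 5, at 142.7 CPM. The log2 fold change of 1.12 ± 0.31 was close to the threshold (edgeR adjusted p = 0.0419) and was lost in 13 of the 20 fits that each left out 1 library, with adjusted p up to 0.105.

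Fh1, the fumarase, was not called on chow with all libraries, at a log2 fold change of 0.80 ± 0.32 (edgeR adjusted p = 0.165). It was 280, 266, 535, 452 and 578 CPM in WT chow livers and 730, 584, 436, 1085 and 836 CPM in KO chow livers. Within the livers that were not low-slope, both WT values lay below all 3 KO values, and the fit without the 6 low-slope libraries called it at 1.11 ± 0.26 (edgeR adjusted p = 0.0266). Without those libraries 9 of the 35 genes rose on chow (the 5 above with Idh3g, Ogdh, Suclg1 and Fh1) and 0 fell, against 3.09% and 2.23% of 15262 tested genes.

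Glud1, the mitochondrial glutamate dehydrogenase that joins glutamate to oxoglutarate, moved the other way. It was 738, 680, 567, 566 and 448 CPM in WT chow livers and 351, 385, 477, 326 and 244 CPM in KO chow livers. Only KO chow 3 reached into the WT range, above WT chow 5. The log2 fold change was -0.75 ± 0.21 (edgeR adjusted p = 0.0441), and the call was lost in 15 of the 20 fits that left out 1 library and without the low-slope libraries (-0.80, edgeR adjusted p = 0.0571).

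The remaining steps gave no call on chow with all libraries. Cs, the citrate synthase, had a log2 fold change of 0.32, Sdha, the catalytic subunit of succinate dehydrogenase, 0.52, and Pdha1, the catalytic alpha subunit of pyruvate dehydrogenase, 0.35. Pdha1 shares 16.1% of its exonic bases with Map3k15 on the other strand and is uncertain if strand was not counted. Mpc1 was at -0.20 and Mpc2 at 0.13, and Pdk2, the main liver kinase of the complex, at 0.66. All 4 genes of the pyruvate dehydrogenase complex other than Dld, all 4 of succinate dehydrogenase and all 3 of succinyl-CoA ligase had log2 fold changes above 0, between 0.02 and 0.53, none past the test. Got1 had the largest value without a call, 1.71 ± 0.54 (edgeR adjusted p = 0.0699), and was named after its values were seen, as were Idh3b, Idh3g, Dld and Suclg1. The phosphatase genes Pdp1 and Pdp2 were at 0.34 and -0.48.

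**Figure D2:**
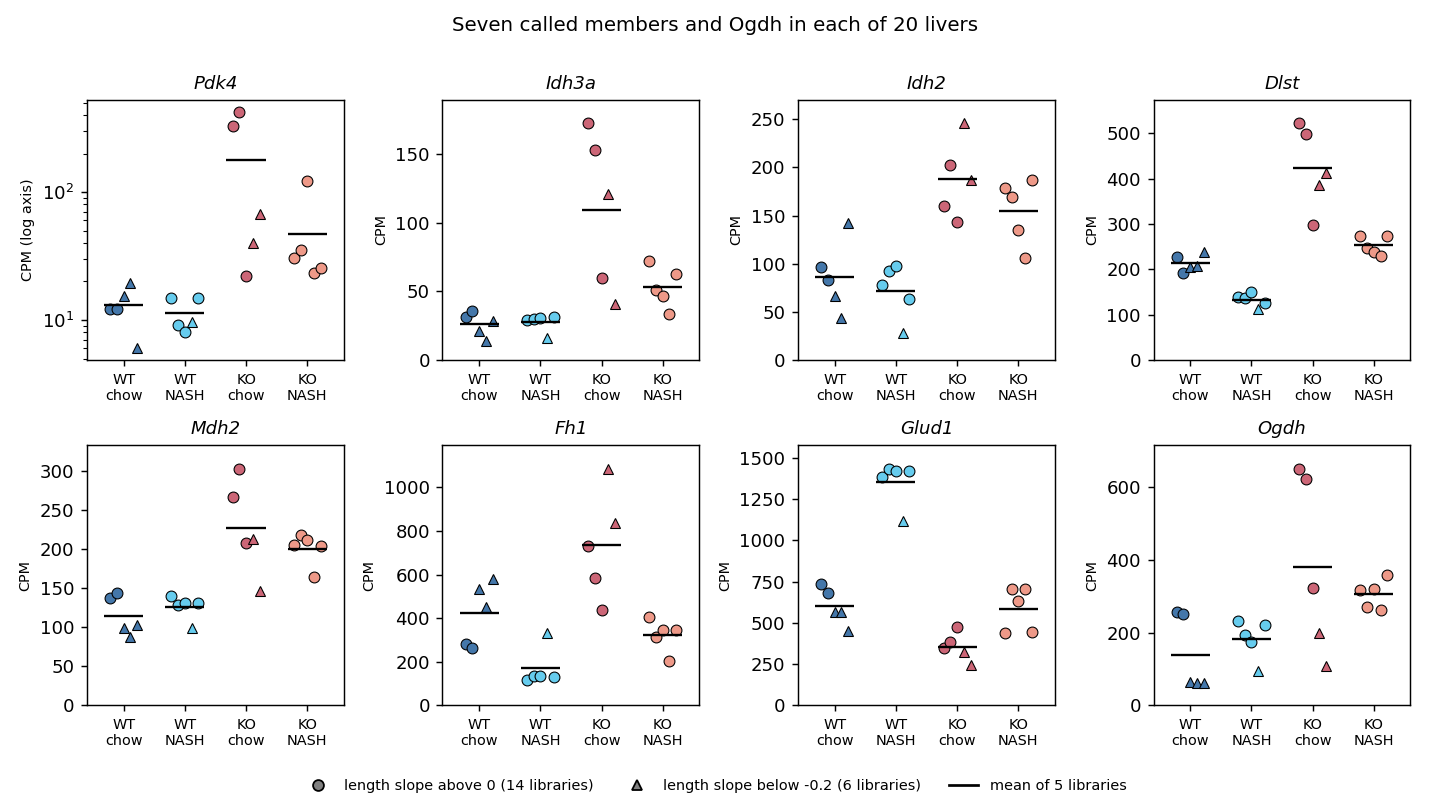
CPM (y axis; log axis for Pdk4) of the 7 called genes and Ogdh in each of 20 livers, by group (x axis), with the mean of 5 livers as a line; triangles are the 6 low-slope libraries. Pdk4, Idh3a, Dlst, Mdh2 and Idh2 lie higher in KO than in WT livers on both diets, Glud1 is highest in WT NASH livers, and Ogdh and Fh1 split by the low-slope libraries.

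On the NASH diet, Idh2, Dlst and Mdh2 were again higher in KO than in WT livers and Glud1 was lower. These were 4 of 35 genes called, against 9.65% of all tested genes (4.9% higher and 4.74% lower), a share near the background. The median log2 fold change of the 35 was 0.07, with 21 above 0 (all tested genes 0.00 and 50.3%). Values did not overlap for 10 genes that were higher in all 5 KO livers (Idh2, Idh3a, Idh3g, Ogdh, Dlst, Sdha, Mdh2, Pdha1, Pdk2 and Pdk4), against 7.67% of all tested genes, and for Glud1 in the other direction, against 6.44%.

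Dlst was 139, 136, 149, 112 and 126 CPM in WT NASH livers and 275, 247, 238, 230 and 274 CPM in KO NASH livers. The 2 groups were narrow and well apart. Their difference was 0.93 ± 0.17 on the log2 scale (edgeR adjusted p = 0.00212), and the call held in every alternative fit and every fit without 1 library, as it did for Dlst, Idh3a and Pdk4 on chow.

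Glud1 was 1382, 1433, 1423, 1115 and 1419 CPM in WT NASH livers and 438, 709, 634, 704 and 444 CPM in KO NASH livers. Even WT NASH 4, the lowest WT liver, was above every KO liver. Glud1 had a log2 fold change of -1.21 ± 0.22 (edgeR adjusted p = 0.0018). It was -1.27 ± 0.17 without the low-slope libraries (edgeR adjusted p = 0.000399) and -0.97 in male livers alone, where WT NASH 4 is the only WT liver and the call was lost (edgeR adjusted p = 0.0982).

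Idh2 was 77.8, 92.3, 97.3, 27.5 and 63.5 CPM in WT NASH livers and 179, 169, 135, 106 and 187 CPM in KO NASH livers, with a log2 fold change of 1.11 ± 0.31 (edgeR adjusted p = 0.031). Mdh2 was 140, 128, 131, 99.0 and 131 CPM in WT NASH livers and 204, 217, 211, 164 and 204 CPM in KO NASH livers, with 0.67 ± 0.20 (edgeR adjusted p = 0.04). Neither gene overlapped between the groups. Both calls were lost with sex in the fit (edgeR adjusted p = 0.0567 for Idh2 and 0.128 for Mdh2) and when KO NASH 1 and 5, the closest pair of libraries, were summed into 1.

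Pdk4 was 14.9, 9.14, 7.99, 9.71 and 14.9 CPM in WT NASH livers and 30.8, 35.1, 121, 23.4 and 25.5 CPM in KO NASH livers. All KO values were above all WT values, and KO NASH 3 stood far above the other 4. The log2 fold change of 2.06 ± 0.66 just missed the threshold (edgeR adjusted p = 0.0518); without the low-slope libraries it was 2.01 ± 0.68 and passed (edgeR adjusted p = 0.0492). With sex in the fit it was 1.27 (edgeR adjusted p = 0.313).

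Idh3a was 29.1, 30.0, 30.7, 16.3 and 31.4 CPM in WT NASH livers and 71.8, 51.1, 46.9, 33.7 and 62.7 CPM in KO NASH livers. The groups did not overlap, and the log2 fold change of 0.95 ± 0.34 was not called (edgeR adjusted p = 0.0831). Ogdh was 232, 193, 174, 94.6 and 220 CPM in WT NASH livers and 316, 271, 319, 261 and 357 CPM in KO NASH livers, at 0.74 and not called (edgeR adjusted p = 0.343).

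Fh1 was 119, 133, 134, 331 and 132 CPM in WT NASH livers and 404, 313, 348, 202 and 346 CPM in KO NASH livers. WT NASH 4 alone broke an otherwise clean separation. With all libraries the log2 fold change of 0.92 ± 0.32 was not called (edgeR adjusted p = 0.0741); without the low-slope libraries it was 1.31 ± 0.19 (edgeR adjusted p = 0.000617), and in male livers, against WT NASH 4 only, it was 0.00 ± 0.51. In that fit of 14 libraries, 11 of the 35 genes rose and 1 fell in KO NASH livers, against 10.5% and 9.82% of 15262 tested genes. Idh2, Idh3a, Idh3g, Ogdh, Dlst, Suclg1, Sdha, Sdhb, Fh1, Mdh2 and Pdk4 rose and Glud1 fell. The fit of 14 libraries set 4 female WT NASH livers against 4 male and 1 female KO NASH livers. Genotype and sex can hardly be told apart in it.

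Pdk4 aside, the entry steps of the cycle gave no call on the NASH diet in either fit. Cs had a log2 fold change of -0.26 in KO against WT NASH livers, Pdha1 0.26, Pdk2 0.46 and Mpc2 -0.03, none called. Mpc1, which overlaps the antisense transcript 4930506C21Rik over 23.1% of its exonic bases and is uncertain where counting ignores strand, was at -0.74 (edgeR adjusted p = 0.143). Sdha was 436, 448, 496, 344 and 412 CPM in WT NASH livers and 648, 629, 605, 604 and 607 CPM in KO NASH livers; the groups were apart, at a log2 fold change of 0.54 that was not called with all libraries (edgeR adjusted p = 0.152) and was 0.47 and called without the low-slope libraries (edgeR adjusted p = 0.0178). Among the members without a call, values ran from -0.89 for Idh1 to 2.06 for Pdk4.

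**Figure D3:**
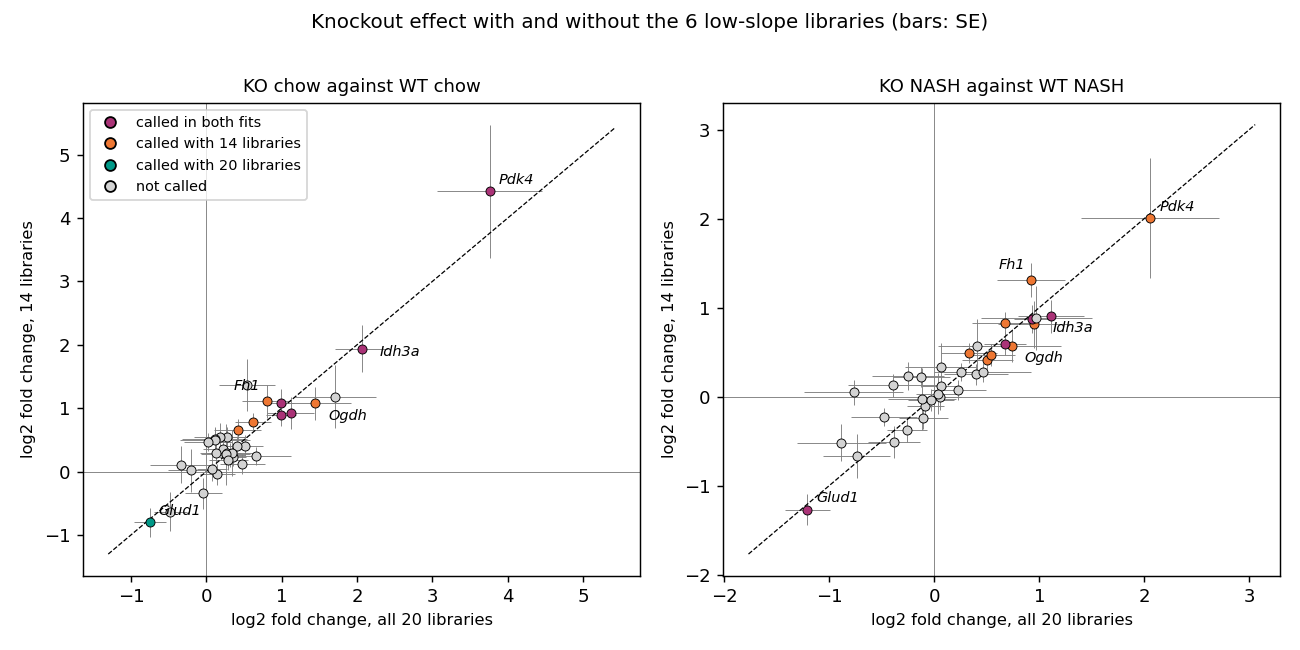
Log2 fold change of KO against WT livers with all 20 libraries (x axis) and without the 6 low-slope libraries (y axis) for the 35 genes, on chow (left) and on the NASH diet (right); bars are SE, the dashed line marks equal values, and colours give the edgeR call in each fit. Most genes stay near the line; Fh1 and Ogdh are among those called only with 14 libraries.

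Among WT livers, those on the NASH diet had more Glud1 and less Dlst and Fh1 than those on chow, 3 of 35 genes called against 5.93% of all tested genes (2.69% higher and 3.24% lower). The median log2 fold change of the 35 was -0.15, with 13 above 0, against 0.01 and 50.7% for all tested genes. Glud1 rose by 1.18 ± 0.22 on the log2 scale (2.26-fold, edgeR adjusted p = 0.00319), with all 5 WT NASH livers above all 5 WT chow livers; 2.9% of all tested genes were separated in that direction. Dlst fell by 0.69, from 213 ± 18.6 to 132 ± 14.3 CPM (SD, n = 5 each; log2 fold change -0.69 ± 0.17, edgeR adjusted p = 0.0216), again with no overlap, as 3.25% of all tested genes did. Fh1 fell by 1.31 (log2 fold change -1.31 ± 0.33, edgeR adjusted p = 0.0219), with WT NASH 4 inside the WT chow range.

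Without the low-slope libraries Glud1 and Fh1 were called, at 1.01 and -1.06 (edgeR adjusted p = 0.0232 and 0.0173), against 4.88% of 15262 tested genes. Dlst was at -0.59 there (edgeR adjusted p = 0.0963). That fit set 2 male WT chow livers against 4 female WT NASH livers, so diet and sex cannot be told apart in it. With sex added to the fit, 0 of the 35 genes were called, against 1.11% of all tested genes: Glud1 was at 1.00 (edgeR adjusted p = 0.0772), Fh1 at -0.94 (0.222) and Dlst at -0.60 (0.22), and 5 genes had an unadjusted p below 0.05. Diet and sex overlapped in only 1 WT NASH mouse, so the effect of sex on these 3 values cannot be told apart from that of the diet.

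Cs, the citrate synthase, had a log2 fold change of 0.64 ± 0.19 that just missed the threshold (edgeR adjusted p = 0.0538). It was called higher by DESeq2, by limma voom, with the length slope as a term and with replicate numbers as a block, and in male livers it was at 0.04 (edgeR adjusted p = 0.967). Suclg1, the alpha subunit of succinyl-CoA ligase, was at -1.05 and likewise just short of it (edgeR adjusted p = 0.0533). Pdk4 was at -0.20, Pdk2 at 0.52, Pdha1 at -0.22, Sdha at 0.00, Ogdh at 0.39, Mpc1 at 0.11 and Mpc2 at -0.31, none called. The remaining members ran from -0.81 (Sdhd) to 0.41 (Pdk3).

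Among KO livers, those on the NASH diet had less Dlst and Fh1, 2 of 35 genes against 3.29% of all tested genes (1.77% higher and 1.52% lower). Dlst fell by 0.74 (log2 fold change -0.74 ± 0.17, edgeR adjusted p = 0.025), from 423 ± 90.4 to 253 ± 20.7 CPM, and Fh1 fell by 1.19 (log2 fold change -1.19 ± 0.32, edgeR adjusted p = 0.0484), from 734 ± 247 to 323 ± 74.9 CPM (SD, n = 5 each). The Fh1 call was lost in 15 of the 20 fits that left out 1 library. The median log2 fold change of the 35 was -0.36, and 8 were above 0, against -0.02 and 48.3% over all tested genes. In 8 genes every KO NASH liver lay below every KO chow liver (Dlst, Dld, Sucla2, Sdhd, Fh1, Mdh1, Pdha1 and Pdhb), against 4.31% of all tested genes; 6 of these 8 also read higher in the low-slope libraries, which were present in KO chow only.

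Without the low-slope libraries 8 of the 35 genes fell in KO livers on the NASH diet and 0 rose, against 4.29% and 3.41% of 15262 tested genes. They were Idh3a (-1.27), Ogdh (-0.80), Dlst (-0.80), Dld (-0.49), Sucla2 (-0.61), Sdhd (-0.59), Fh1 (-0.86) and Pdk4 (-2.46), with edgeR adjusted p from 0.0127 to 0.0424. With all libraries Pdk4 was at -1.91 ± 0.65 (edgeR adjusted p = 0.101) and Idh3a at -1.04 ± 0.34 (edgeR adjusted p = 0.0938). In male KO livers the mean of Idh3a was 149 CPM on chow (n = 3) and 53.8 CPM on the NASH diet (n = 4). In female KO livers it was 50.4 CPM on chow (n = 2) and 51.1 CPM in the 1 liver on the NASH diet. Glud1 was at 0.72 and was not called in either fit (edgeR adjusted p = 0.0702 and 0.0944).

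**Figure D4:**
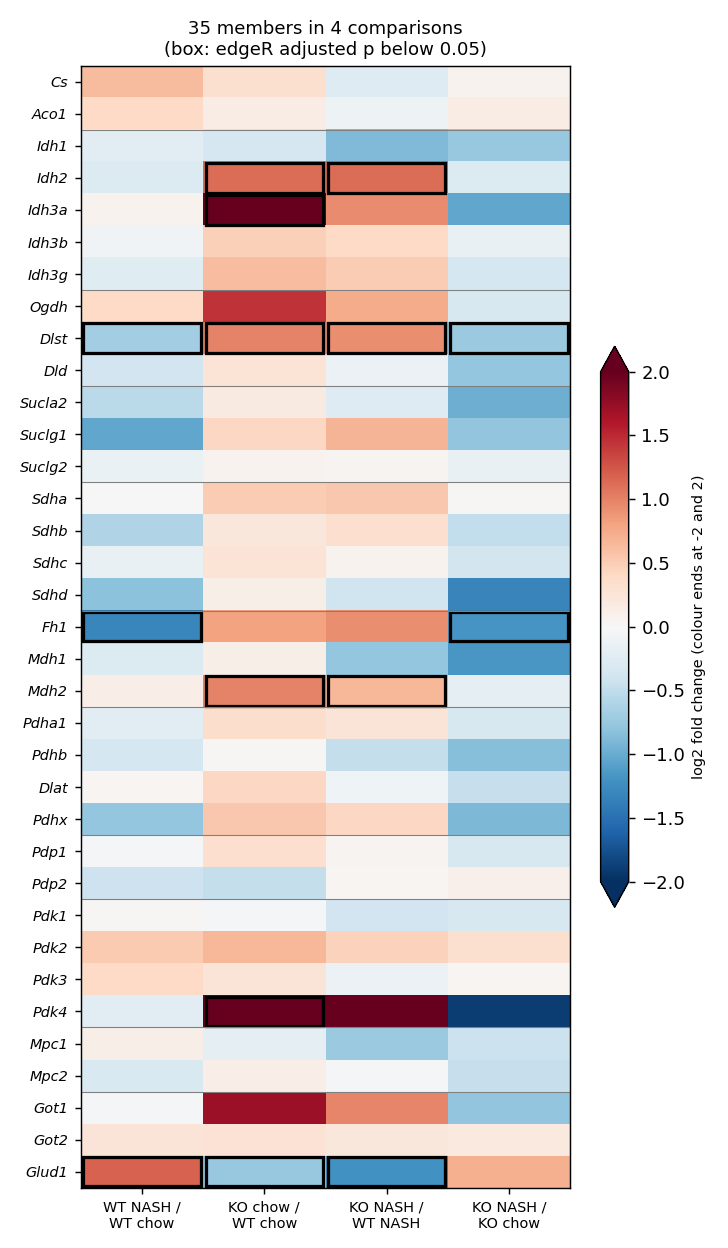
Log2 fold changes of the 35 genes (rows, grouped by role) in 4 comparisons (columns), with colours ending at -2 and 2; a black box marks edgeR adjusted p below 0.05. Dlst is boxed in all 4 columns, Glud1 in 3, and the pyruvate carrier and phosphatase rows hold no box.

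The difference between the knockout effects on the 2 diets was tested as an interaction. It called 0 of the 35 genes in edgeR, against 0.139% of all tested genes, and 2 had an unadjusted p below 0.05. The limma voom fit called 7 of the 35, against 13.5% of all tested genes, and DESeq2 called 0, against 1.31%. The 2 genes with an unadjusted p below 0.05 in edgeR were Idh3a, at -1.11 ± 0.48, and Cs, at -0.58 ± 0.27. For Pdk4 the difference was -1.70 with a 95% interval from -3.57 to 0.17, and for Dlst -0.06 with an interval from -0.56 to 0.44. The comparisons with a shared group, such as the diet effect in WT and the knockout effect on chow, use the same libraries and are given here side by side only.

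The order of group means differed between genes. Dlst ran from KO chow (423 ± 90.4 CPM) through KO NASH (253 ± 20.7) and WT chow (213 ± 18.6) to WT NASH (132 ± 14.3); KO NASH and WT chow overlapped. Glud1 ran from WT NASH (1354 ± 135 CPM) through WT chow (599.9 ± 113) and KO NASH (586 ± 135) to KO chow (356 ± 85.0), and the middle 2 did not differ beyond their spread. Idh3a ran from KO chow (109 ± 57.2 CPM) through KO NASH (53.3 ± 14.7) to WT NASH (27.5 ± 6.30) and WT chow (26.1 ± 8.85), and the 2 WT groups did not differ beyond their spread.

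The 4 kinases of pyruvate dehydrogenase were compared per kilobase of exon, as shares of their summed level. In WT livers Pdk2 held the largest mean share, 49.8 ± 17.4% on chow and 64.5 ± 5.53% on the NASH diet (SD, n = 5 each), and Pdk4 held 16.5 ± 11.9% and 9.71 ± 3.66%. In KO livers Pdk2 held 35.6 ± 17.8% on chow and 62.9 ± 12.4% on the NASH diet. The share of Pdk4 in KO livers was 47.9 ± 24.8% on chow and 23.5 ± 14.9% on the NASH diet. Single KO chow livers ran from 12.5% in KO chow 3 to 74.9% in KO chow 2, and WT chow livers from 7.68% to 33.1%, so the groups overlapped on chow.

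In WT chow the share of Pdk2 was split by the low-slope libraries, with 67.5% and 69.9% in livers 1 and 2 and 33.9% to 39.6% in livers 3 to 5. In the NASH diet groups, which hold only 1 low-slope library, Pdk4 shares ran from 5.76% to 14.5% in WT and from 14.6% to 49.8% in KO livers. The NASH diet groups did not overlap, by a narrow margin. Pdk3 held at most 2.71% in any liver.

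**Figure D5:**
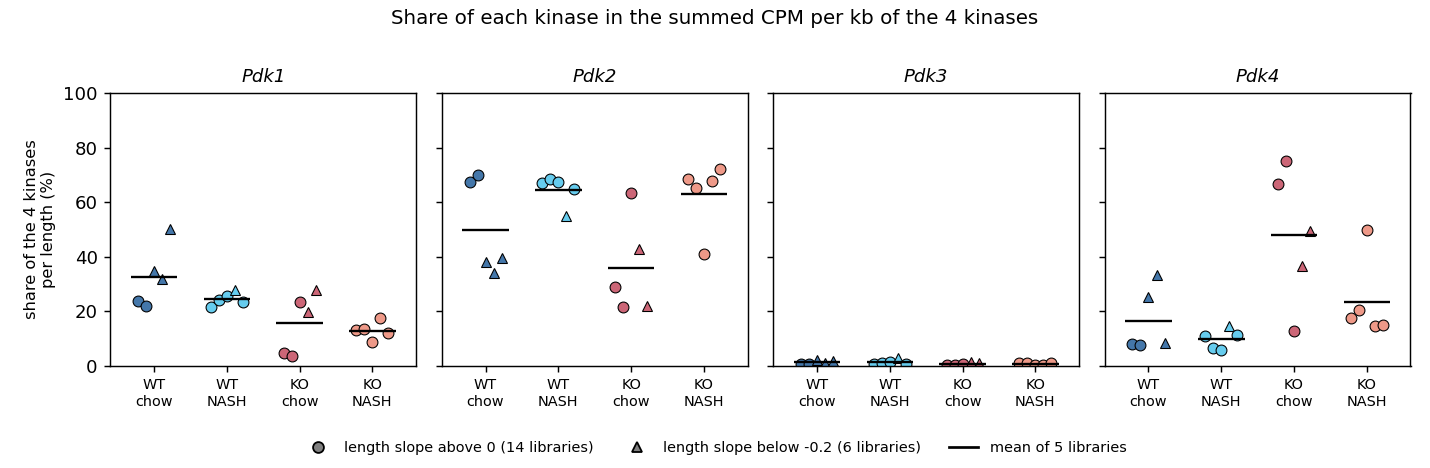
Share of each kinase in the summed CPM per kb of Pdk1, Pdk2, Pdk3 and Pdk4 (y axis, percent) in each of 20 livers by group (x axis), with group means as lines and low-slope libraries as triangles. Pdk4 reaches 66.6% and 74.9% in KO chow livers 1 and 2 and is at most 14.5% in any WT NASH liver.

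Neighbouring genes of the pathway, a list of 36 that feed, drain or assemble the cycle and its dehydrogenases, were counted in the same fit, in which 33 were tested. On chow 3 rose in KO livers and 0 fell: Slc25a10, the dicarboxylate carrier (0.78), Bckdhb, a subunit of branched-chain ketoacid dehydrogenase (0.77), and Ldhb, the lactate dehydrogenase B subunit (1.69). These are 3 of 33 beside 5.53% of all tested genes, and 1 of 33, Ldhb, with replicate numbers as a block, with KO NASH 1 and 5 summed or with no low-count filter; 0 passed in the fit of the 2 groups alone, and Slc25a10 was lost with sex in the fit and without the low-slope libraries. On the NASH diet 4 rose, Slc25a10 (1.21), Slc25a11, the oxoglutarate carrier (2.02), Bckdhb (0.70) and Bckdk, the kinase of the branched-chain complex (0.77), and 2 fell, Acly (-1.20) and the succinate dehydrogenase assembly factor Sdhaf3 (-1.74), 6 of 33 beside 9.65% of all tested genes. Bckdhb was lost there in 6 of the 12 alternative fits, with sex, the block or the summed pair among them. Sdhaf3 was lost with the summed pair and Acly in male livers, where WT NASH 4 was the only WT liver. Without the low-slope libraries 9 rose and 2 fell, against 10.5% and 9.82% of 15262 tested genes. In WT livers the NASH diet went with more Acly, the ATP citrate lyase that turns exported citrate into acetyl-CoA (1.74), and with less Oat, the ornithine aminotransferase (-1.24). Oat was lost without the low-slope libraries, and both were lost in male livers. In KO livers Ldhb was lower on the NASH diet (-1.54) and no other neighbour passed the test. Slc25a11 and Ldhb had low levels. Slc25a11 was 1.22 ± 0.771 CPM in WT NASH and 5.10 ± 3.76 CPM in KO NASH livers (SD, n = 5 each). Ldhb was 2.56 ± 1.15 CPM in WT chow, 8.25 ± 4.08 CPM in KO chow and 2.83 ± 0.735 CPM in KO NASH livers.

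Acly was the only gene of either list whose knockout effect differed between the diets in edgeR, at -1.39 ± 0.28 (adjusted p = 0.0451). That call was lost with sex in the fit, with the block, with no low-count filter, in male livers and with KO NASH 1 and 5 summed. On chow it was 56.4 ± 14.02 CPM in WT and 64.3 ± 15.8 CPM in KO livers, and on the NASH diet 188 ± 23.5 and 81.9 ± 6.88 CPM (SD, n = 5 each). The WT NASH livers, at 152 to 207 CPM, lay above all other livers.

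Since Pdk4 is a known PPARA target, 16 other targets of that receptor were read from the same fit. On chow 3 of the 16 rose in KO livers, Acot2 and Ehhadh among them, and 0 fell, with a median log2 fold change of 0.82 (all tested genes 5.53% called, median 0.00). In KO against WT livers on the NASH diet 6 rose and 0 fell, with a median of 1.64 (all tested genes 9.65%, median 0.00). With DESeq2 13 rose, where 15.2% of all tested genes were called in either direction. Without the low-slope libraries 11 rose, where 20.3% were called. Between WT livers 7 of the 16 were lower on the NASH diet, with a median of -1.36 (all tested genes 5.93%, median 0.01). That count was 3 with sex in the fit (all tested genes 1.11%). It was 3 with a median of -0.65 without the low-slope libraries (all tested genes 4.88%). Between KO livers 1, Ehhadh, was lower on the NASH diet, with a median of -0.90 (all tested genes 3.29%, median -0.02). Without the low-slope libraries 6 were lower (all tested genes 7.69%). For KO against WT livers on chow the count was 5 without the low-slope libraries (all tested genes 5.33%). It was 1 in the block fit, which called 883 of 14440 tested genes. Ehhadh, the peroxisomal bifunctional enzyme, was 2077 ± 1781 CPM in WT chow and 11307 ± 4604 CPM in KO chow livers, and 351 ± 99.9 and 2178 ± 872 CPM on the NASH diet. The chow groups overlapped, with KO chow 3 at 3399 CPM below WT chow 3, a low-slope library, at 5149 CPM.

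Markers of other liver cells were read beside these results. Macrophage markers summed on chow to 277 to 946 CPM in WT and 419 to 1044 CPM in KO livers, and on the NASH diet to 415 to 773 and 297 to 406 CPM; of the 6, Cd68 was called higher in KO than in WT livers on chow and 0 were called on the NASH diet. Of 7 hepatocyte markers, Serpina1c was called lower in KO livers on both diets and no other was called in the knockout comparisons. The endothelial markers Lyve1 and Kdr, 2 of 6, were called higher in KO NASH than in WT NASH livers. In the same comparison the adipocyte marker Cfd, 1 of 2 tested, was called higher. The only pancreas marker tested, Cela1, was called lower. In KO livers Col1a1, 1 of 7 stellate cell markers, and Sox9, 1 of 6 cholangiocyte markers, were called higher on the NASH diet than on chow. The median log2 fold changes of these lists were 0.54 and 0.85. In WT livers Cd68, 1 of 6 macrophage markers, and Cd3e, 1 of 6 lymphocyte markers, were called higher on the NASH diet. The medians of those lists were 0.02 and -0.04. Of 5 erythroid markers, Hbb-bs and Hbb-bt were called lower on the NASH diet in both genotypes. The part of these differences in the results above was not tested.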

How the data were processed

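Liver RNA of 20 mice was sequenced, and the authors deposited a table of whole-number counts per gene. HISAT2 2.0.4 and the build GRCm38 are named in the submitters' processing notes; the sources used here do not give the counting program, annotation or strand setting. The column names call the NASH diet HFD. Genes passing filterByExpr (minimum count 10; 14440 genes with 99.91% of counts) were tested with edgeR 4.0.16 in R 4.3.3: TMM scaling, a quasi-likelihood fit of 4 groups over 20 libraries, Benjamini-Hochberg adjustment over all genes and a call at adjusted p below 0.05. CPM are TMM-scaled, and levels per kb use GENCODE M21 exon unions. Alternatives used DESeq2 1.42.0, limma 3.58.1 voom, other scaling, filters, terms and sample sets; leaving out the low-slope libraries was chosen after seeing the data. By rule, members called in any comparison are given in every library, with values for Cs, Pdk4, Pdk2, Pdha1, Mpc1, Mpc2, Sdha and Ogdh in any case, Pck1 as the genotype check, and at most 10 called neighbours. The members and lists were chosen with earlier results of these data known. Totals of 9958935 to 20601955 counts and a common biological variation of 39% set the precision. Labels number the mice, and p-values measure the spread between these mice. Some called genes of the neighbour and PPARA target lists are not reported here by name.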

Additional observations from a re-analysis of the deposited data

Results flagged for a closer look

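In 24 of 140 sets of 5 livers (35 genes in 4 groups), the highest or lowest liver stood apart from the other 4 by Dixon's test at 0.71 of the range; chance gives about 5% of sets. Of these, 13 were WT NASH 4, a low-slope library and the only male of its group, with 8 values high and 5 low. Its high values were Idh1 at 1010 CPM (others 370 to 453), Dld at 332 (122 to 164), Sucla2 at 412 (110 to 154), Suclg1 at 213 (127 to 151), Sdhd at 525 (134 to 180), Fh1 at 331 (119 to 134), Mdh1 at 2380 (394 to 617) and Pdhb at 176 (78 to 103). Its low values were Idh3a at 16.3 CPM (others 29.1 to 31.4), Mdh2 at 99 (128 to 140), Pdk2 at 33.1 (77.9 to 89.6), Got2 at 207 (393 to 452) and Glud1 at 1110 (1380 to 1430). The part of sex and of the length slope in these values was not tested apart.

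In KO chow, liver 4 stood high for Idh3g at 142 CPM (others 63.9 to 79.2), Sdhc at 194 (118 to 138) and Pdha1 at 255 (164 to 181). Liver 5 stood high for Dlat at 79.1 CPM (41.6 to 49.9) and Pdp1 at 4.8 (1.98 to 2.57) and low for Aco1 at 105 (157 to 175), and liver 1 stood low for Pdk3 at 0.556 (0.941 to 1.05). In KO NASH, liver 3 stood high for Pdk4 at 121 CPM (23.4 to 35.1) and Pdhx at 10.2 (3.88 to 5.67) and low for Idh3g at 57.7 (68.5 to 71.7), and liver 4 stood low for Mdh2 at 164 (204 to 217).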

How the results depend on the processing

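No call reversed under the alternatives run. Of 180 values of the 15 called gene and comparison pairs under 12 other settings, 146 kept their call and 34 lost it; of 300 values with 1 library left out, 230 kept it and 70 lost it. Calls for Pdk4, Idh3a and Dlst on chow (KO against WT) and for Dlst on the NASH diet held in all of them; Pdk4 ran from 3.18 to 4.42 in the 12 settings. The number of members called between WT NASH and WT chow, 3 in edgeR, was 5 with DESeq2, 19 with limma voom, 1 with only the 2 groups compared, 0 with sex as a term, 5 with the length slope, 1 with both terms, 0 in male libraries, and 1 to 8 with 1 library left out. Between KO chow and WT chow, 6 became 15 with limma voom, 3 with the 2 groups only, 11 with the length slope, 15 with both terms, and 4 to 7 with 1 library left out. Between KO NASH and WT NASH, 4 became 7 with DESeq2, 13 with limma voom, 10 with the 2 groups only, 2 with sex, 2 with KO NASH 1 and 5 summed, 12 without the 6 low-slope libraries, and 2 to 6 with 1 library left out. Between KO NASH and KO chow, 2 became 0 with no filter, 8 with DESeq2, 7 with limma voom, 1 with the 2 groups only, 4 with the length slope, 9 with both terms, 0 in male libraries, 1 with KO NASH 1 and 5 summed, 8 without the low-slope libraries, and 0 to 6 with 1 library left out. The interaction count of 0 was 7 with limma voom, which called 13.5% of all tested genes, and 0 with any 1 library left out. The share of all tested genes called moved with the setting as well. Between WT NASH and WT chow it was 10.4% with DESeq2, 40.6% with limma voom, 12.3% with the length slope and 5.01% with both terms. Between KO chow and WT chow it was 40.4% with limma voom, 11.5% with the length slope and 13.8% with both terms. Between KO NASH and WT NASH it was 15.2% with DESeq2, 23.8% with limma voom, 4.33% with sex and 20.3% without the low-slope libraries. With only those 2 groups compared, 2073 of 13656 tested genes were called. Between KO NASH and KO chow it was 9.02% with DESeq2, 12.7% with limma voom and 6.37% with the length slope. It was 9.37% there with both terms and 7.69% without the low-slope libraries. The cause of these shifts was not tested.

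Leaving out WT NASH 4 gave 8 calls for the diet in WT and 6 for the diet in KO livers. For the diet in WT livers, the count was 1 without WT chow 5, WT NASH 2 or WT NASH 5, and 5 without KO chow 5. For KO against WT on the NASH diet it was 2 without WT NASH 5 or KO NASH 1, 2 or 5. For the diet in KO livers it was 5 without KO chow 3, 0 without KO chow 1 or KO NASH 2, 4 or 5, and 1 when any single 1 of 10 other libraries was left out.

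With the replicate number as a block, 5 members were called for the diet in WT livers and 1 for the diet in KO livers. Deviations of same-numbered libraries had correlations from -0.41 to 0.52 (median 0.05, 30 pairs), and 6 of 20 libraries correlated best with their own number, so the numbers were not taken as a pairing. KO NASH 1 and 5 differed by a chi-square of 9.57 per gene over 10728 genes, above counting noise but below the next closest pair of libraries (25.9), and were kept as separate mice.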
